A study of Homo sapiens with 8 samples.

Results

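The genes described here encode the proteins of the cytosolic ribosome. Members were all protein-coding genes whose symbol is RPL or RPS with a number and up to 2 letters, together with RPLP0, RPLP1, RPLP2 and RPSA. Pseudogenes and the RPS6K kinases were left out. The rule found 82 genes, 50 of the large and 32 of the small subunit, among 24630 features in the count files. They were compared between PC9R and PC9. PC9 is a human lung adenocarcinoma line with an activating mutation of EGFR, and gefitinib, which inhibits the EGFR kinase, stops its growth. PC9R cells were obtained from PC9 by 1 to 2 weeks of gefitinib, and both lines were grown in DMEM and used at passages 8 to 12. Each line had 2 RNA-seq libraries, 1 list of DNase hypersensitive sites (DHS, a mark of open chromatin) and 1 list of H3K4me2 peaks (a histone mark of promoters and enhancers). Drug exposure was given only for PC9R, so its effect and a difference between the cell populations cannot be told apart. The labels do not state whether both RNA libraries of a line stem from different cultures. The p-values below therefore reflect the spread between libraries, and that spread may be technical.

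Cytosolic ribosomes consist of a large and a small subunit, each made of folded ribosomal RNA covered by proteins, most of them needed in equal numbers. Ribosomal protein mRNAs are among the most abundant of dividing cells. Most of them begin at a cytosine followed by a run of pyrimidines, the 5′ terminal oligopyrimidine (TOP) tract, through which the kinase TORC1 and the RNA-binding protein LARP1 control their translation. Growth factor receptors such as EGFR feed into TORC1. Free RPL5 and RPL11 are also known to bind MDM2, the ligase that degrades p53.

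The start-site sequences below belong to the members that passed a test between the lines further on and had an entry in the RefSeq promoter table (GRCh38.p14), which held 65 of the 82 members. They are shown because the start defines the TOP tract. Each runs 5′ to 3′ on the strand of the gene and holds 40 bases before the annotated start and 15 bases from it. Capitals mark the first pyrimidine run that begins within 3 bases of the start.
RPS28 (chr19:8321456-8321510, plus strand): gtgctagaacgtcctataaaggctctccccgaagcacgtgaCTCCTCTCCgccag
RPL14 (chr3:40457299-40457353, plus strand): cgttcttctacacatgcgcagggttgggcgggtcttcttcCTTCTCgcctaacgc
RPL24 (chr3:101686704-101686758, minus strand): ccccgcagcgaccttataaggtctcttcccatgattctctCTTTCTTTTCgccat
RPL29 (chr3:51995881-51995935, minus strand): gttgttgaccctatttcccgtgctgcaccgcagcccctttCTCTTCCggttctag
RPL35A (chr3:197950150-197950204, plus strand): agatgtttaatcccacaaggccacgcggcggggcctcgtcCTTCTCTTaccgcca
RPS7 (chr2:3575220-3575274, plus strand): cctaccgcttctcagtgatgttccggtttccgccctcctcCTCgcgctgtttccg
RPS12 (chr6:132814529-132814583, plus strand): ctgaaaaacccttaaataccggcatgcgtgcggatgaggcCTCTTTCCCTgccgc
RPS29 (chr14:49598696-49598750, minus strand): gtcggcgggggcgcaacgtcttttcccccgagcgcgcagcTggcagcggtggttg

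Of these sequences, those of RPL14, RPL24, RPL29, RPL35A and RPS12 begin with C and at least 4 further pyrimidines. RPS28 begins with A, and its run of 9 pyrimidines starts at position 2. In RPS7 the run holds 3 bases, and the RPS29 sequence begins with a lone T. For RPS29 this RefSeq start lies upstream of the start used for its promoter peaks, whose sequence is not shown. Over the table, 42 of 65 members (64.6%) began with C and at least 4 pyrimidines, against 4.04% of all 27305 promoters. The median run of those 42 was 8 bases, and the longest, at RPL39, filled the 15 bases shown and went on to 19. The letters CCGGAA, the core of an ETS-type site, stood on either strand in 53.8% of the members' 300-base windows and in 17.6% of all windows. AAGATGG, the core of a YY1-type site, was in 12.3% of members and 6.06% of all, and TATAAA in 9.23% and 12.0%. Annotated starts can differ from the starts used in these cells. The 41 tested members with the pyrimidine start had a median log2 fold change of -0.34 in PC9R over PC9, and the 20 tested members in the table without it had -0.32.

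The first library of PC9R held 32502455 counts and the second 16715426, and those of PC9 held 32515891 and 16013058. Levels are given as CPM, counts scaled by library size with TMM factors. The 11 epithelial markers summed to 21736 and 11576 CPM in PC9R and 24713 and 10386 CPM in PC9. Leukocyte markers summed to 19.0 and 13.8 CPM in PC9R and 8.58 and 8.12 CPM in PC9, with ITGAM and MS4A1 at 0. Fibroblast markers summed to 70.5 and 14.3 CPM in PC9R and 24.0 and 6.06 CPM in PC9, with DCN at 0, and endothelial markers to 51.3 and 20.6 CPM against 22.7 and 12.2 CPM. In the fit with library number as a term that is used below, 1 of 9 tested epithelial markers rose (CDH1; median log2 fold change of the list -0.07), as did the only tested leukocyte marker (CD68; 0.85), 1 of 2 fibroblast markers (COL1A1; median 1.49) and 1 of 4 endothelial markers (CDH5; median 0.37), and 0 fell. Over all genes tested in that fit 11.2% rose and 9.57% fell, and single calls in lists this short are not read further. The part of other cell types in the members' values was not tested.

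Member levels in the files differed with the number of RefSeq transcript accessions of a gene. The 52 members with 1 accession had a median of 605 CPM over the 4 libraries, and 15 of them reached 1000 CPM. The 30 members with more than 1 accession had a median of 33.2 CPM and a maximum of 267 CPM. Of the 88 accessions of those 30 genes, 36 had 0 counts in every library. RPL13A, with 3 accessions, was listed at 0 in all 4 libraries, RPL10 had 2 counts in 1 library of PC9R, and RPL32 stayed below 1 CPM. These are core proteins of every ribosome, so such values are not levels of expression; the rule for reads shared between accessions is not stated in the sources used. Counts of 3, taken as the floor, correspond to 0.0854 and 0.178 CPM in PC9R and to 0.0941 and 0.2002 CPM in PC9. Low counts also occurred among members with 1 accession. RPSA, a small-subunit protein at the mRNA exit, had 0.342 and 0.476 CPM in PC9R and 1.03 and 0.601 CPM in PC9, and RPL21 had 0.484 and 0.535 CPM in PC9R and 1.72 and 0.868 CPM in PC9. RPL21 has 133 annotated pseudogenes and RPSA 74, and the part of reads shared with such copies in these counts was not tested. Across the 52 genes, level and pseudogene number had a Spearman rho of -0.12 (a description across genes that differ in level). RPL23A, with 87 pseudogenes, was counted at 128 and 196 CPM in PC9R and 108 and 137 CPM in PC9.

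**Figure D1:**
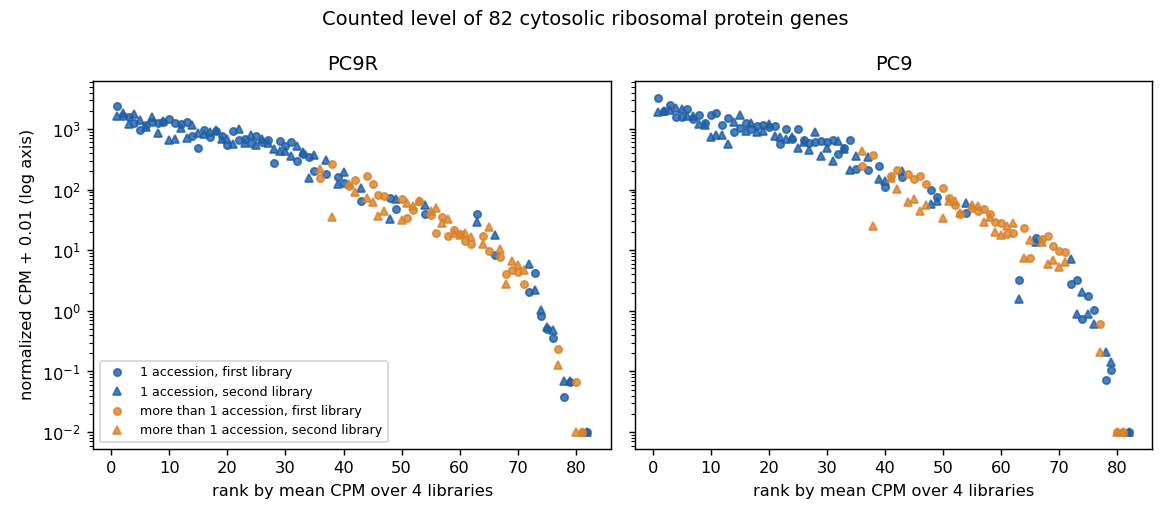
Counted level of the 82 members in PC9R (left) and PC9 (right), as normalized CPM plus 0.01 on a log axis against rank by mean CPM, with circles for first and triangles for second libraries. The members with 1 accession (blue) fill the top of the range, and those with more than 1 (orange) lie at or below 267 CPM on average.

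Among the highest members with 1 accession, RPL30 of the large subunit had 1629 and 1872 CPM in PC9R and 1955 and 1974 CPM in PC9. RPS6, the small-subunit protein phosphorylated by S6 kinases downstream of TORC1, had 1252 and 1766 CPM in PC9R and 1582 and 2234 CPM in PC9. The ranges of the lines overlapped for RPS6, whereas both PC9R libraries lay below both PC9 libraries for RPL30. Per kilobase of coding sequence RPL30 led with a mean of 5384 CPM per kb, followed by RPL37 with 4340 and RPS21 with 4190.

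As a whole, ribosomal protein genes took 3.65% and 3.22% of counts in PC9R and 4.35% and 3.54% in PC9. The first library of PC9R lay between the libraries of PC9, so the groups overlapped, while within the first pair the difference was -0.69 percentage points and within the second -0.32. The mean share was 3.44% ± 0.31 in PC9R and 3.94% ± 0.57 in PC9 (SD, n = 2 each), a difference of -0.51 percentage points (exact permutation test, two-sided, p = 0.667; the smallest p that 2 against 2 libraries allow is 0.333). Without the first PC9 library the difference was -0.10 points, without the second PC9 library -0.91, and without the second PC9R library -0.29. In a further setting the 50 highest genes of each library were left out, including the members among them. The genes left out can thus differ between libraries, and the highest members no longer count. The shares were then 3.37% and 2.86% in PC9R and 3.41% and 2.91% in PC9, a difference of -0.046 points. How the other highest genes alone bear on the share was not tested.

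Between the lines, most tested members had lower values in PC9R, by a modest amount. In all, 76 members passed the filter on low counts; among the other 6 were RPL10, RPL10L, RPL13A, RPL32 and RPL3L. The median log2 fold change of the tested members was -0.34 (quartiles -0.58 and -0.11), which is 1.27-fold lower in PC9R, with 62 below 0 and 14 above. Over all 12660 genes tested the median was -0.01 (quartiles -0.43 and 0.47). Large-subunit members had a median of -0.30 (45 tested) and small-subunit members -0.34 (31 tested). Level moved with this value: the 2536 genes at 100 CPM or more had a median of -0.14, and the 45 members among them -0.29. Log2 fold changes were within 1 of 0 for 89.5% of the members and 81.1% of all genes, and at 100 CPM or more for 93.3% and 92.0%. Leaving out the first PC9 library moved the members' median to -0.12, with that of all genes at 0.11, and leaving out the second moved it to -0.55.

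No member passed edgeR's quasi-likelihood test in the fit with line as the only term (Benjamini-Hochberg adjusted p under 0.05 over all genes). None of the 76 was called higher, where 0.19% of all genes were, and none was called lower, where 0.0632% were. Unadjusted p was under 0.05 for 2 members, RPL14 and RPS28, and for 7.27% of all genes. First and second libraries differed in total counts and by GC content, as described below, and were therefore also compared as pairs. Members with a lower value in PC9R in both pairs numbered 52 of 76 (68.4%), against 37.4% of all genes, and 10 (13.2%) were higher in both pairs, against 36.6%. Both PC9R libraries lay below both PC9 libraries for 24 members (31.6%), against 14.9% of all genes, and above them for 4 (5.26%), against 16.9%. Those 4 were RPL19, RPL27A, RPS24 and RPS28. Within the first pair the members' median was -0.43 and within the second -0.16.

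With library number added as a term, which leaves 1 residual degree of freedom and borrows the spread across genes, 10 members (13.2%) fell in PC9R, against 9.57% of all genes. In that fit 1 member (1.32%) rose, RPS28, against 11.2% of all genes. The share that fell is near the background share. The 10 included RPL5, RPL14, RPL24, RPL29, RPL35A, RPS7, RPS12 and RPS29. All 10 passed in the 3 fits with that term and in no other alternative, with adjusted p between 0.00537 and 0.9999 over all alternatives. Without the term and with a library left out, their log2 fold changes lay between -2.36 for RPL14 and 0.26 for RPL29.

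RPS28 differed most. This small-subunit protein sits near the exit of the mRNA channel. It had 39.6 and 29.5 CPM in PC9R (1391 and 496 counts), against 3.23 and 1.53 CPM in PC9 (103 and 23 counts). Both PC9R libraries were far above both PC9 libraries. The log2 fold change was 3.84 (SE 0.71, edgeR adjusted p = 0.0788), 14.3-fold, and 3.88 with library number as a term (SE 0.29, adjusted p = 0.000168). Within the first pair it was 3.58 and within the second 4.19. RPS28 passed in 8 of 16 alternatives, with adjusted p between 1.67e-06 and 0.318 over them. It passed when either PC9R library was left out and not when either PC9 library was. Per kilobase of coding sequence its mean was 167 CPM in PC9R and 11.5 CPM in PC9, while RPL30 had 5074 and 5694. As for RPL13A, RPL10 and RPL32, counts this low for a ribosomal protein gene are not read as levels of expression. The fold change of RPS28 is therefore one of counts, and whether its mRNA differed as much was not tested.

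RPS28 starts at position 8386380 of chromosome 19 (hg19). NDUFA7, a subunit of respiratory complex I, starts 121 bases away and had 96.7 and 61.0 CPM in PC9R and 84.1 and 38.4 CPM in PC9. Its log2 fold change was 0.36 (SE 0.62, edgeR adjusted p = 0.999), and 0.43 with library number as a term (SE 0.22, adjusted p = 0.194). Of the 11 other genes tested within 300 kb, the ceramide synthase gene CERS4 had 160 and 56.4 CPM in PC9R and 35.6 and 11.3 CPM in PC9. The unconventional myosin gene MYO1F had 22.1 and 1.37 CPM in PC9R and 2.54 and 0.868 CPM in PC9, and its groups overlapped. CERS4 rose with library number as a term (log2 fold change 2.24, SE 0.21, edgeR adjusted p = 0.000455), as did MYO1F, KANK3, MARCHF2 and RAB11B. CD320, ANGPTL4, HNRNPM, ZNF414 and RAB11B-AS1 did not pass, and 11.2% of all genes rose in that fit. RPS28 has 5 annotated pseudogenes, whose part in its counts was not tested. An H3K4me2 peak lay within 1 kb of its start in both lines, and a DHS peak in neither.

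On the small subunit, RPS12 had 544 and 687 CPM in PC9R and 1087 and 1200 CPM in PC9. Its groups did not overlap, and its log2 fold change was -0.90 with library number as a term (SE 0.17, edgeR adjusted p = 0.0101). RPS7, which like RPL5 and RPL11 can bind MDM2, had 65.9 and 106 CPM in PC9R and 161 and 199.8 CPM in PC9. Its fold change in that fit was -1.10 (SE 0.20, adjusted p = 0.00798).

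RPS29, a zinc-binding protein of the small-subunit head, had 158 and 223 CPM in PC9R and 249.7 and 438 CPM in PC9. Both PC9R libraries lay below both PC9 libraries, and the log2 fold change was -0.82 with library number as a term (SE 0.19, edgeR adjusted p = 0.0192).

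RPS24, whose alternative last exons give several protein forms, was the second highest fold change. It had 64.2 and 64.9 CPM in PC9R and 40.3 and 41.7 CPM in PC9, a log2 fold change of 0.65 without (SE 0.54, edgeR adjusted p = 0.999) and with the library term (SE 0.20, adjusted p = 0.056). Its 6 accessions did not behave alike. NM_001142282 had 2206 and 1071 counts in PC9R and 1182 and 594 in PC9, whereas NM_001142285 had 7 and 1 in PC9R and 57 and 14 in PC9. NM_001142283 had 41 and 19 counts in PC9R and 47 and 17 in PC9, and the other 3 were at 0. The gene sum therefore mixes accessions that were higher and lower in PC9R, and no test was made on single accessions.

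RPS6 and RPS4X, the X-linked copy of eS4, did not pass. RPS4X had 1287 and 1584 CPM in PC9R and 1468 and 1631 CPM in PC9 (log2 fold change -0.11, SE 0.45), and RPS6 had a fold change of -0.34 in each pair. RPS19, mutated in Diamond-Blackfan anaemia, and RPS14, lost in the 5q deletion syndrome, did not pass either. RPS19 had 1476 and 658 CPM in PC9R and 1724 and 726 CPM in PC9. RPS14, with 3 accessions, had 2.79 and 4.64 CPM in PC9R and 9.28 and 6.47 CPM in PC9 (log2 fold change -1.09, SE 0.64). RPS3A and RPS27, with fold changes of 0.63 and 0.64, were counted at 9.85 and 24.6 CPM and at 4.27 and 2.20 CPM in PC9R, against 7.31 and 14.9 CPM and 3.23 and 0.868 CPM in PC9. RPS27A, made as a fusion with ubiquitin, had 34.5 and 59.3 CPM in PC9R and 73.4 and 64.2 CPM in PC9 (log2 fold change -0.55, SE 0.57). For RPS14 and RPS27A both PC9R libraries lay below both PC9 libraries, and for RPS4X, RPS6, RPS19, RPS3A and RPS27 the groups overlapped.

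On the large subunit, RPL5 had 954 and 1417 CPM in PC9R and 1571 and 2161 CPM in PC9. It forms the 5S particle with RPL11 and 5S ribosomal RNA. Its log2 fold change was -0.65 (SE 0.48, edgeR adjusted p = 0.999), and -0.66 with library number as a term (SE 0.17, adjusted p = 0.0269). RPL11, which has 2 accessions, had 68.7 and 31.1 CPM in PC9R and 108 and 33.8 CPM in PC9, overlapping groups, and did not pass in either fit. RPL24, which bridges the subunits, had 274 and 465 CPM in PC9R and 619 and 908 CPM in PC9, and fell with the library term (log2 fold change -1.07, SE 0.18, adjusted p = 0.00547). RPL35A, another Diamond-Blackfan gene, had 490.5 and 868 CPM in PC9R and 1053 and 1695 CPM in PC9 (-1.03, SE 0.17, adjusted p = 0.00537 in that fit).

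RPL14 had the lowest fold change of all members, but on few counts. It had 3.99 and 2.79 CPM in PC9R and 17.2 and 6.01 CPM in PC9. The gene has 2 accessions, and whether these are partial counts was not tested. The log2 fold change was -1.77 (SE 0.73, edgeR adjusted p = 0.63) and -1.66 with library number as a term (SE 0.32, adjusted p = 0.0102). RPL29 had 346 and 156 CPM in PC9R and 661 and 207 CPM in PC9. It was lower in PC9R within each pair, yet the groups overlapped, and without the first PC9 library its log2 fold change was 0.26.

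The stalk proteins recruit elongation factors to the large subunit. RPLP2 had 1328 and 710 CPM in PC9R and 1510.5 and 568 CPM in PC9, with pair differences of -0.19 and 0.32. RPLP0 had 35.8 and 27.8 CPM in PC9R and 48.0 and 29.2 CPM in PC9, and RPLP1 had 79.4 and 43.8 CPM in PC9R and 122 and 56.5 CPM in PC9. Both have 2 accessions, so their counts are not read as a stoichiometry of the stalk, and none of the 3 passed in either fit. RPL41, the smallest member, had 19.0 and 50.1 CPM in PC9R and 44.1 and 53.5 CPM in PC9 (log2 fold change -0.50, SE 0.65). RPL19, which was higher in both PC9R libraries, differed by a log2 fold change of 0.13 (SE 0.45).

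Members with a close paralogue were mostly counted on 1 side of the pair. RPL36AL, an intronless copy, had 178 and 305 CPM in PC9R and 207 and 351 CPM in PC9, while RPL36A, with 52 pseudogenes, had 0.826 and 1.01 CPM in PC9R and 0.721 and 2.07 CPM in PC9. RPL39 had 297 and 533 CPM in PC9R and 380 and 633 CPM in PC9. RPL39L, otherwise known from testis and some cancers, had 47.8 and 69.1 CPM in PC9R and 75.6 and 65.4 CPM in PC9. RPS27L, a p53-inducible paralogue of RPS27, had 39.2 and 54.7 CPM in PC9R and 41.9 and 59.3 CPM in PC9. RPL3L, the striated muscle paralogue of RPL3, was at 0.2002 CPM or less in every library, and RPL10L, known from testis, at 0.133 CPM or less. RPL3 itself had 147 and 90.5 CPM in PC9R and 208 and 103 CPM in PC9. No tested gene of these pairs passed in either fit, and reads shared between paralogues and pseudogenes could have been split between them.

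**Figure D2:**
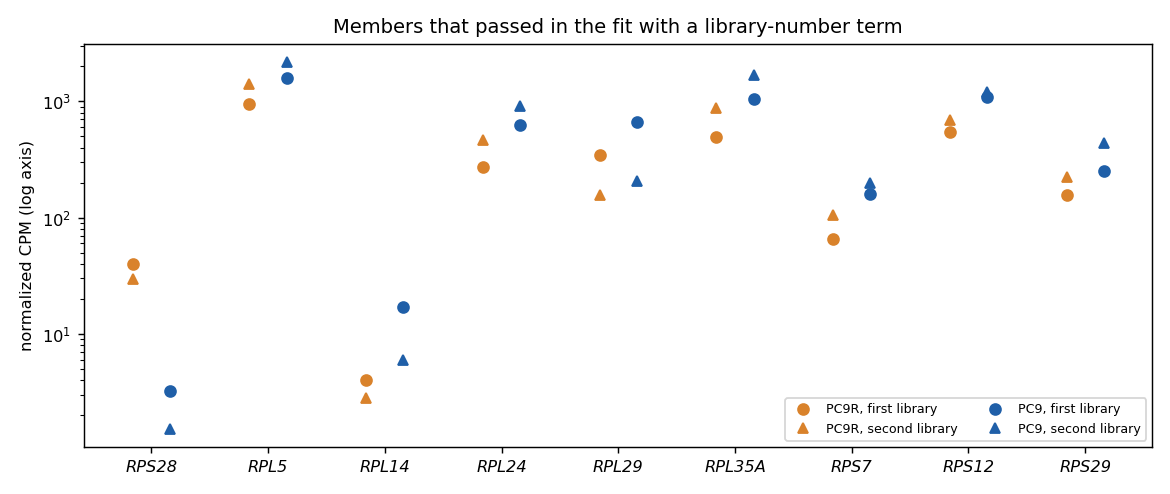
Normalized CPM (log axis) in each RNA library of 9 members that passed with library number as a term, PC9R in orange left of PC9 in blue, circles for first and triangles for second libraries. RPS28 is higher in both PC9R libraries, and for all the others except RPL29 both PC9R points lie below both PC9 points.

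Fold changes of the members differed by chromosome. All 7 tested members on chromosome 3 were below 0, with a median log2 fold change of -1.02, and 4 of the 10 members that fell with library number as a term lie there (RPL14, RPL24, RPL29 and RPL35A). The other 666 tested genes of chromosome 3 had a median of -0.34, and 23.3% of them fell in that fit, against 9.57% of all genes. On chromosome 17, 5 of 6 members were above 0, with a median of 0.09, and the other 726 genes had a median of 0.32. Chromosome 13 held RPL21 alone, at -1.36, where the other genes had a median of -0.68. Chromosome 19 held 11 tested members, of which RPS28 was the only member above 0; their median was -0.37 and that of the other 870 genes 0.08.

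**Figure D3:**
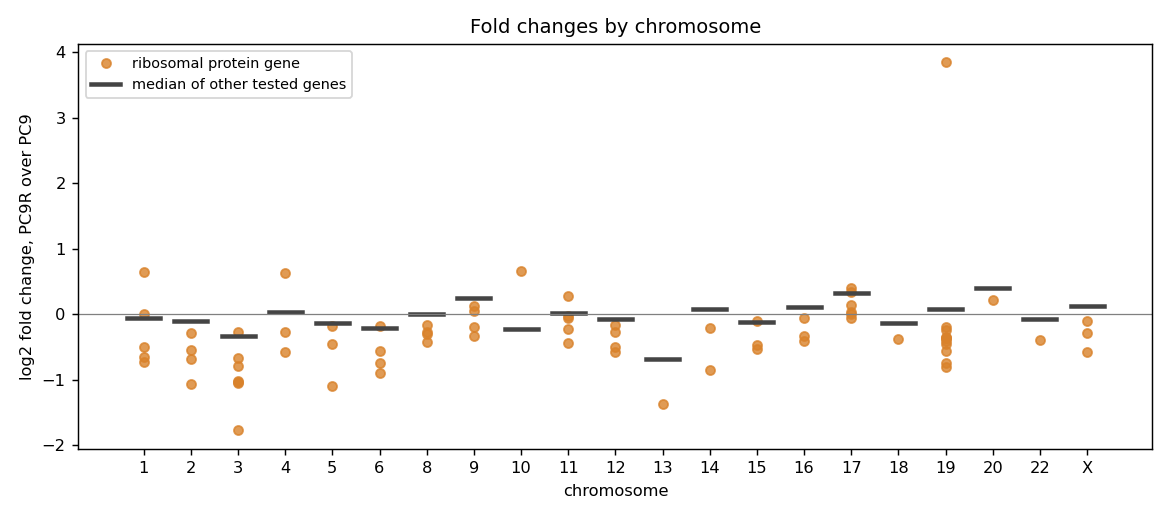
Log2 fold change of PC9R over PC9 for each tested member (orange) by chromosome, with the median of the other tested genes of that chromosome (black bar). Members are low on chromosomes 3 and 13 and near or above 0 on chromosome 17, and RPS28 on chromosome 19 stands alone at 3.84.

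The same held at a finer scale. Across the 76 members, the log2 fold change and the median over other tested genes that start within 5 Mb had a Spearman rho of 0.61 (0.60 within the first pair and 0.55 within the second). Members in the first pair against neighbours in the second had a rho of 0.59, and members in the second against neighbours in the first 0.40; these are correlations across genes, which are not independent replicates, and neighbours of nearby members overlap. In all, 66 of 76 members lay below their neighbours' median. Over all 76, the difference of member minus neighbours' median had a median of -0.34, while the neighbours' medians were centred at -0.02. RPS7 (-1.07) lay in a window with a median of -0.64, RPSA (-1.04) in a window with -0.85, and RPL23A (0.40) in a window with 0.48. RPL39, by contrast, was at -0.29 where its neighbours had 0.65. RPS24 was at 0.65 where they had -0.69. DNA copy number was not measured here, and its part in these values was not tested.

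**Figure D4:**
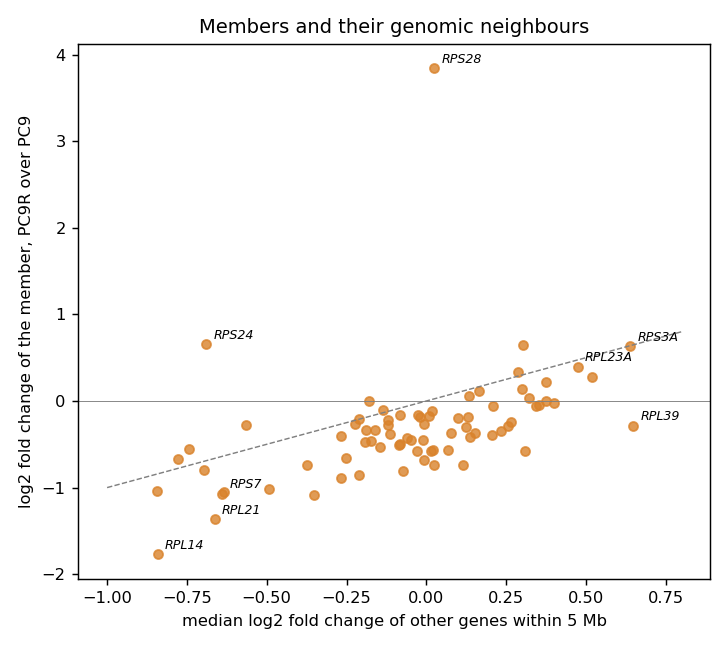
Log2 fold change of each of the 76 tested members against the median log2 fold change of the other tested genes within 5 Mb of its start; the dashed line marks equality. Points rise from left to right (Spearman rho 0.61), and 66 of 76 lie below the line, with RPS28 and RPS24 far above it.

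Levels of the members also differed between the first and second library of a line. The log2 difference, second minus first library, ranged from -2.90 to 1.51 in PC9R and from -3.89 to 1.42 in PC9. It was related to the GC content of the transcript, with a Spearman rho across the 76 members of -0.62 in PC9R and -0.62 in PC9, and across the other genes with a known GC content of -0.66 and -0.75. The 13 members at 55% GC or more had median differences of -0.90 in PC9R and -1.05 in PC9, and the 24 members under 45% had 0.40 and 0.31. RPL8, with the highest GC content (63.6%), had 264 and 35.3 CPM in PC9R and 378 and 25.4 CPM in PC9. RPL7, at 40.3% GC, had 2.05 and 6.004 CPM in PC9R and 2.76 and 7.14 CPM in PC9. The differences of a gene in PC9R and in PC9 had a rho of 0.84 across the members. The fold change between the lines was not related to GC content (rho 0.02). No label states what set the libraries apart.

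**Figure D5:**
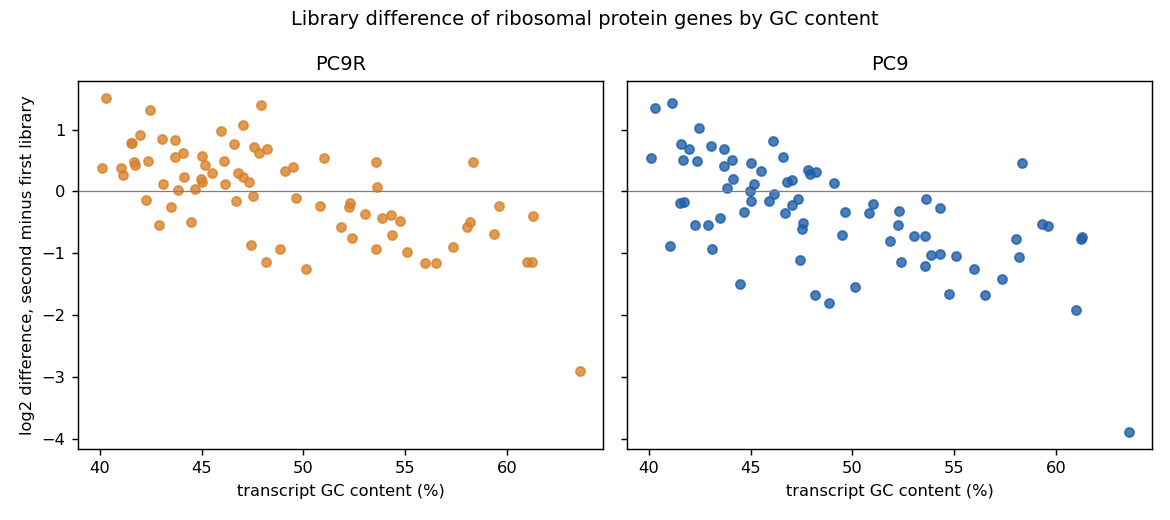
Log2 difference between the second and first library for the 76 tested members against transcript GC content (%), in PC9R (left) and PC9 (right). In both lines GC-rich members were lower in the second library, and the lowest point in each panel is RPL8.

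At the promoters, an H3K4me2 peak lay within 1 kb of the start of 79 of 82 members in both lines, and 76 of the 76 tested members had 1. The 3 without a peak in either line included RPL10L and RPL3L, which were also at or near 0 in the RNA libraries. Of all tested genes with a known start, 92.6% had such a peak in PC9R and 92.3% in PC9. DHS peaks were found at 52 members in PC9R (63.4%) and at 56 in PC9 (68.3%). Among the 76 tested members the shares were 64.5% and 69.7%, against 53.5% and 45.3% of all tested genes with a known start. The PC9R list held 59600 DHS peaks and the PC9 list 19648. The PC9R list was also reduced to its highest-scored peaks at the length of the PC9 list. Then 27 members (32.9%) had a peak in PC9R, and 28.8% of the tested genes with a known start. With 1 list per line and assay there is no test of these counts, and no source used here gives the peak thresholds.

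A DHS peak in both lines was found at 47 members, in PC9R only at 5, in PC9 only at 9 and in neither at 21. These are 57.3%, 6.10%, 10.98% and 25.6% of all members, and 57.9%, 6.58%, 11.8% and 23.7% of the tested members fell into these classes. Of all tested genes with a known start, 35.3%, 18.2%, 9.95% and 36.6% did. With lists of equal length the classes held 25, 2, 31 and 24 members. These are 30.5%, 2.44%, 37.8% and 29.3%, against 22.4%, 6.42%, 22.9% and 48.3% of the tested genes. Within 250 bp of the start the classes held 42, 2, 14 and 24 members. The split thus depends on list length and distance, and the genes and medians below are for full lists and 1 kb. The 5 with a peak in PC9R only were RPL12, RPL4, RPL7, RPL8 and RPS7. At RPS7 the peak spanned chr2:3622261-3622577 (hg19), and by the authors' score it was among the weaker ones, within the upper 90.5% of its list. The peak at RPL4 spanned chr15:66797609-66797922 and stood within the upper 28.5%. Members with a peak in PC9 only included RPL24 (chr3:101405302-101405793, within the upper 22.8% of its list) and RPL23 (chr17:37009629-37009947, upper 39.6%). RPL24 fell in PC9R with library number as a term, as did RPS7, whose peak was in PC9R only. Median log2 fold changes were -0.29 for members with a DHS in both lines (44 tested), -0.43 with a DHS in PC9R only (5), -0.38 in PC9 only (9) and -0.38 in neither (18). Other genes had medians of -0.08, 0.14, -0.19 and 0.09 in these classes.

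Other parts of the translation machinery are given from lists chosen with earlier results of these data known. None of their genes passed without the library term, so the calls below are from the fit with it, in which 11.2% of all genes rose and 9.57% fell. Of 57 tested ribosome biogenesis factors 0 rose and 13 fell (22.8%), with a median log2 fold change of -0.33 over the list. They included NOLC1 (nucleolar chaperone; 387 and 877 CPM in PC9R, 857 and 1119 CPM in PC9), the rRNA methylase FBL (365 and 499.7 CPM in PC9R, 747 and 653 CPM in PC9), WDR43 and GNL2. Of 75 mitochondrial ribosomal protein genes, which serve a separate ribosome, 0 rose and 13 fell (17.3%; median -0.27), among them MRPL37, MRPS16 and MRPS34. MRPL37 had 301 and 423 CPM in PC9R and 642 and 579 CPM in PC9.

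Of 38 initiation factors 0 rose and 3 fell (7.89%; median -0.23), a share near the background of 9.57%. EIF3I, a subunit of eIF3, had 444 and 578 CPM in PC9R and 1034 and 1098 CPM in PC9, and EIF2B2, of the exchange factor eIF2B, had 117 and 160.03 CPM in PC9R and 384 and 427 CPM in PC9. EIF4H was the other gene that fell. Of 11 elongation and termination factors 1 rose and 1 fell (9.09% each), and these are alternative forms of the factor that brings aminoacyl-tRNA to the ribosome. EEF1A2, the form of neurons and muscle that is also found in some tumours, had 2882 and 1447 CPM in PC9R and 2052 and 709 CPM in PC9 (log2 fold change 0.76 with the library term, SE 0.19, edgeR adjusted p = 0.0269). EEF1A1, the ubiquitous form, had 724 and 694 CPM in PC9R and 1294 and 1324 CPM in PC9 (-0.89, SE 0.17, adjusted p = 0.01). Among the initiation factors EIF3C and EIF4A1 were at 0, so counts in these lists may be partial too. The levels of EEF1A1 and EEF1A2 are therefore not compared with each other.

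Of 18 other TOP mRNAs 0 rose and 3 fell (16.7%; median -0.33): EEF1A1, the importin IPO5 and RACK1, a scaffold protein of the small subunit. RACK1 had 2808 and 1804 CPM in PC9R and 4932 and 2710 CPM in PC9 (log2 fold change -0.70 with the library term, SE 0.17, edgeR adjusted p = 0.0214). Among 10 paralogues, ubiquitin fusions and ribosome-associated genes outside the rule RACK1 was also the only gene that fell (10%; median -0.47), and 0 rose. Of 17 tested genes of the TORC1 and MYC pathway 0 passed in either direction (median -0.18). MYC had 360.4 and 425 CPM in PC9R and 475 and 344 CPM in PC9, and LARP1 had 649.8 and 701 CPM in PC9R and 889 and 998 CPM in PC9. Of 13 p53 target genes 0 rose and 1 fell (7.69%), GDF15 (19.3 and 8.08 CPM in PC9R, 54.3 and 11.1 CPM in PC9), with a median of -0.02.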

How the data were processed

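The members and gene lists were chosen with earlier results of these data known. The authors deposited whole-number read counts per RefSeq transcript accession for each RNA library. They deposited 1 peak list per DHS and H3K4me2 library with a score per peak, whose scale is not stated and which was used only within its list. Per the submitters' processing notes, TopHat, HTSeq, DESeq, MACS2 and hg19 were used, with no version or role; no source used here gives the counting mode or peak thresholds.

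Counts of 42811 accessions (41556 matched to the RefSeq gene table of GRCh38.p14, used for names) were summed per gene. After TMM scaling and filterByExpr, 12660 genes entered a two-sided quasi-likelihood test in edgeR 4.0.16 (R 4.3.3) with line as the only term. Calls needed an adjusted p under 0.05 (Benjamini-Hochberg over all genes tested). SE was obtained from the F statistic. Fold changes are PC9R over PC9. Values within a pair are log2 ratios of single libraries with a prior count of 2. First and second libraries formed 2 batches, since depth and the GC gradient differ between them. The labels do not number the libraries: the titles set first apart from second, and that a number marks a shared batch rests on depth and the GC gradient alone.

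Start sites, transcript GC content, coding length and chromosomes came from GENCODE 44 lifted to GRCh37. Annotated pseudogenes were counted in a separate list of gene names, as symbols made of the member's symbol, P and a number. A promoter peak overlaps by at least 1 bp a window of 1 kb either side of the start. Genes were named by a rule: members called in either fit, the 5 highest and 5 lowest with 1 accession, the 5 largest and smallest fold changes, 13 members of known function, 5 paralogue pairs, up to 4 members per peak class and the called genes of each list. RPL8, RPL19, RPL37, RPS21 and the genes around RPS28 were chosen after their values were seen. Alternatives covered scaling (RLE, upper quartile, TMM without the members), filters, DESeq2 1.42.0, limma-voom (limma 3.58.1), the library term, GC and length correction, genes with 1 accession, each library left out, and peak distance and score. Some members that these rules select are not reported here. The scripts were tested on simulated data.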

Additional observations from a re-analysis of the deposited data

How the results depend on the processing

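The number of all genes called, 32 with line as the only term, was 0 with upper quartile scaling (919 at an unadjusted p under 0.05) and 0 with a stricter filter of 5 CPM in 2 libraries (446), 73 with limma-voom, 176 with GC correction, 381 with DESeq2 and 440 with no filter. Leaving out each library gave 83 to 254. The number of members called, 0 in that fit, was 1 with no filter, with DESeq2 and with GC correction, in each case RPS28, and 0 to 1 when a library was left out. With the replicate block (library number as a term) 2631 genes and 11 members were called, with GC correction added 2683 and 14, and with GC and length correction 2798 and 13. The log2 differences between second and first library had a correlation of 0.788 between the lines, but with 2 pairs the libraries share only a number. RPS24 passed in both of the last fits. The members' median log2 fold change of -0.34 was -0.55 to -0.12 when a library was left out and -0.36 to -0.29 under the other alternatives. The difference in the share of counts, -0.51 percentage points, was -0.91 to -0.10 when a library was left out. It was -0.046 outside the 50 highest genes of each library, which also removes the highest members. Members with a DHS peak in PC9R numbered 52, and 27 when the lists were cut to equal length; the DHS count in PC9 and both H3K4me2 counts stayed within 1.5 times. No member was called with line as the only term, so none of the 544 fold changes of named members under the alternatives could turn from a call. Of the 35 tested named members, 16 changed sign under some setting while not called. Depth limits the members with few counts, such as RPSA, RPL21 and, in PC9, RPS28, and the counts of members with several accessions may be partial.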
